A study of Mus musculus with 18 samples.

Results

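The 10 genes described here encode 4 triggering receptors expressed on myeloid cells (*Trem1*, *Trem2*, *Trem3* and *Treml4*), the adaptor *Tyrobp*, the receptor tyrosine kinases *Mertk* and *Axl*, the kinase ligands *Gas6* and *Pros1*, and the bridging protein *Mfge8*. They were taken by symbol from the 16314 genes of the count table. The list was chosen with earlier results of these data known. All 10 were present, and all 10 were among the 12021 genes that passed the filter on low counts. Bulk RNA-seq measured mRNA in bone marrow-derived macrophages (BMDMs) of *Prep*-/- mice and of heterozygous *Prep*+/- littermates, in 3 biological replicates of each of 6 groups (18 libraries). *Prep* encodes prolyl endopeptidase, an enzyme that cuts short peptides after proline, and the study asked how its loss alters macrophages. Marrow cells from the femora were grown with M-CSF at 50 ng/ml for 7 days, and were then left unstimulated (M0) or stimulated for 24 hours with LPS at 50 ng/ml (M1) or with IL-4 and IL-13 at 20 ng/ml each (M2). The 6 groups are thus *Prep*+/- M0, *Prep*-/- M0, *Prep*+/- M1, *Prep*-/- M1, *Prep*+/- M2 and *Prep*-/- M2. The knockout is in every cell of the animal, the mice were on the C57BL6/J background, and the controls also carry a knocked-out *Prep* allele, so that no group is wild type. The age and sex of the marrow donors are not given in the sources used here.

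TREM receptors are immunoglobulin-like receptors of myeloid cells with short tails. They signal through a partner in the membrane, DAP12, the product of *Tyrobp*, which recruits the kinase SYK. TREM1 amplifies inflammatory responses, and TREM2 binds lipids, lipoproteins and dying cells. Macrophages also clear apoptotic cells, a process called efferocytosis, with the kinases MERTK and AXL. GAS6 and protein S (*Pros1*) link these kinases to phosphatidylserine on the dying cell, GAS6 for both kinases and protein S for MERTK, and MFGE8 links phosphatidylserine to integrins.

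*Trem1*, *Trem3* and *Treml4* lie next to each other on mouse chromosome 17. In the GENCODE M39 annotation of GRCm39, *Trem1* spans chr17:48539784-48553952, *Trem3* spans chr17:48554788-48565876 and *Treml4* spans chr17:48571323-48582388. All 3 are on the plus strand, within 42.6 kb, with 835 bp between the first pair and 5446 bp between the second. *Trem2* lies on the same strand at chr17:48653429-48661175, beyond *Treml2* and *Trem6l*. The other members are on other chromosomes, *Tyrobp* at chr7:30113170-30117010, *Axl* at chr7:25456535-25488329, *Mfge8* at chr7:78783515-78798825, *Mertk* at chr2:128540729-128645080, *Gas6* at chr8:13515371-13544824 and *Pros1* at chr16:62674275-62749710. All 10 are protein-coding.

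The promoters of 4 members are shown because the neighbours *Trem1* and *Treml4* on one side and *Trem2* on the other differed in their response to the knockout (given later), and because *Trem2* and *Axl* are the members that hold the motif searched. Each runs from 250 bases before to 50 bases after the start of the gene in RefSeq (build GRCm38.p6), on the strand of the gene. Capitals mark GAGGAAG, a core sequence bound by PU.1, the macrophage transcription factor that the study examined beside PREP, searched on both strands.
Trem1 (chr17:48232489-48232788, plus strand): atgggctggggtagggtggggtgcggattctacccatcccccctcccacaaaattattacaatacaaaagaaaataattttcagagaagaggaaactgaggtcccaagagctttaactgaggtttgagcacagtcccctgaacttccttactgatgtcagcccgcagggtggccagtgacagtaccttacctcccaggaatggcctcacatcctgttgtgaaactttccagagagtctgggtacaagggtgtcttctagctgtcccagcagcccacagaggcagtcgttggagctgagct
Treml4 (chr17:48264045-48264344, plus strand): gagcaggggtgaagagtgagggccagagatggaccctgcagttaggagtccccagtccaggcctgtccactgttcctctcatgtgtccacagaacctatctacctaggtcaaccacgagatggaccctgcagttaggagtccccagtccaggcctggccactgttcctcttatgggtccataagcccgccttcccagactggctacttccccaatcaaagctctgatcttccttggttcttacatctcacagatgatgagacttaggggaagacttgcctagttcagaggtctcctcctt
Trem2 (chr17:48346151-48346450, plus strand): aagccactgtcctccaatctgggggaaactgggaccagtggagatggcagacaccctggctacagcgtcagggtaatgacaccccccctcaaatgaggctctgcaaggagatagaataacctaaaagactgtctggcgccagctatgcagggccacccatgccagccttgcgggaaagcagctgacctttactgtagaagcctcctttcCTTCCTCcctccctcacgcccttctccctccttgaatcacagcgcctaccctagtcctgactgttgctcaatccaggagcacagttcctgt
Axl (chr7:25788684-25788983, minus strand): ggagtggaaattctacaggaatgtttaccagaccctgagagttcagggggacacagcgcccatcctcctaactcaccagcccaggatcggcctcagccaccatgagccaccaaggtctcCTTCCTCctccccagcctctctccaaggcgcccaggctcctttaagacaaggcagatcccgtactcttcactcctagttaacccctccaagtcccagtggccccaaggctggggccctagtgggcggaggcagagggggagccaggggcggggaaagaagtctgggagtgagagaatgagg
Of the 10 members, 8 had a promoter entry, and *Trem3* and *Tyrobp* had none. The letters GAGGAAG were found in 2 of the 8, read on the opposite strand in each, 41 bases before the start of *Trem2* and 131 bases before the start of *Axl*. Of 32544 promoters of the same length, 13.42% held them. The AP-1 letters TGANTCA stood 9 bases before the start of *Trem2* (7.79% of promoters), the C/EBP letters TTGCNNAA 22 bases after it (10.82%), and the STAT6 motif, TTC and GAA with 4 bases between them, 222 bases before the start of *Pros1* (6.98%). None of these 4 motifs was found in the windows of *Trem1*, *Treml4*, *Mertk*, *Gas6* and *Mfge8*.

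Each library held between 19068237 and 22598279 counts. *Prep* itself lay at 26.0 to 42.5 CPM (counts per 1000000, scaled by TMM) in the *Prep*+/- libraries and at 1.48 to 3.22 CPM in the *Prep*-/- libraries. Replicate 3 of *Prep*-/- M0 and replicate 3 of *Prep*-/- M2 stood apart from the other replicates of their groups, with a chi-square per degree of freedom across genes of 110.9 to 119.7 against at most 49.1 for every other pair of replicates, and results that turn on them are given with and without them. All 10 macrophage markers were detected, with a summed level of 10801 to 48894 CPM, while T and NK cell, erythroid, and mast cell and basophil markers summed to at most 0.237 CPM. Stromal markers reached 21.8 CPM, B cell markers 11.5 CPM and dendritic cell markers 2.83 CPM. B cell markers summed to 3.01 to 4.79 CPM in *Prep*+/- M0 and to 8.66 to 11.5 CPM in *Prep*-/- M0. In M1 they summed to 2.06 to 2.59 CPM and 5.09 to 6.96 CPM, and the ranges overlapped in M2. The 1 B cell marker tested was called higher in *Prep*-/- M0 and M1. Of 6 markers each, 2 of T and NK cells, 3 of B cells and 3 of mast cells and basophils were in the count table. In bulk RNA, fewer cells that express a gene and less RNA per cell cannot be told apart. The sources used here do not say whether the 3 replicates came from separate mice, so that p-values measure the spread between these cultures.

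Levels of different genes were compared as CPM per kb of transcript. In *Prep*+/- M0 BMDMs, *Tyrobp* was highest at 1185 ± 98.3 CPM per kb (SD, n = 3), followed by *Trem2* at 667 ± 86.6 and *Gas6* at 184 ± 19.6. *Mfge8* followed at 39.2 ± 2.09, *Pros1* at 15.03 ± 0.775, *Mertk* at 12.1 ± 0.462 and *Axl* at 5.35 ± 0.730. *Trem3*, *Treml4* and *Trem1* came last, at 3.20, 2.67 and 2.57 CPM per kb, with overlapping ranges. In *Prep*+/- M1 BMDMs the order differed, in that *Trem3* rose to the third place with 52.9 ± 8.11 CPM per kb and *Pros1* fell to the last with 4.65 ± 0.274. *Tyrobp* and *Trem2* held the first and second places in each of the 6 groups, and *Trem1* was last in each of the 3 *Prep*-/- groups.

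A gene was called different between 2 groups when its adjusted p was under 0.05 and its fold change over 1.5, where the adjusted p is from edgeR's quasi-likelihood test on all 18 libraries with Benjamini-Hochberg adjustment over all genes tested. In M0, 3 members were higher (*Tyrobp*, *Mertk* and *Pros1*) and 3 lower (*Trem1*, *Trem3* and *Treml4*) in *Prep*-/- BMDMs, where 15.4% of all genes were called higher and 17.2% lower. In M1, 3 were higher (*Mertk*, *Gas6* and *Pros1*) and the same 3 lower, against 12.3% and 10.2% of all genes. In M2, 3 were higher (*Tyrobp*, *Pros1* and *Mfge8*) and 4 lower (*Trem1*, *Trem3*, *Treml4* and *Axl*), against 6.37% and 9.82% of all genes. With the replicate number as a block, *Mertk* was called higher in M2 as well (8 members in place of 7). The median log2 fold change of the members was 0.19, -0.01 and 0.17 across the 3 states in this order, beside 0.02, 0.04 and 0.03 for all genes. Members called in all 3 states were *Trem1*, *Trem3*, *Treml4* and *Pros1*, and *Trem2* was called in none. How many of all genes were called in all 3 states was not counted. The 3 knockout comparisons use separate libraries, but their tests share the same estimate of the spread. *Prep*-/- M0 and *Prep*-/- M1 libraries of equal replicate number also deviated together (given later), so that the calls in the 3 states are not fully independent. When the test itself was set against a fold change of 1.5 (edgeR's glmTreat), 8 of these calls were lost, those of *Mertk* in M0 and M1 (adjusted p = 0.104 and 0.0648), *Pros1* in M0 and M2 (0.627 and 0.237), *Gas6* in M1 (0.195), and *Tyrobp* (0.783), *Axl* (0.141) and *Trem3* (0.0724) in M2.

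**Figure D1:**
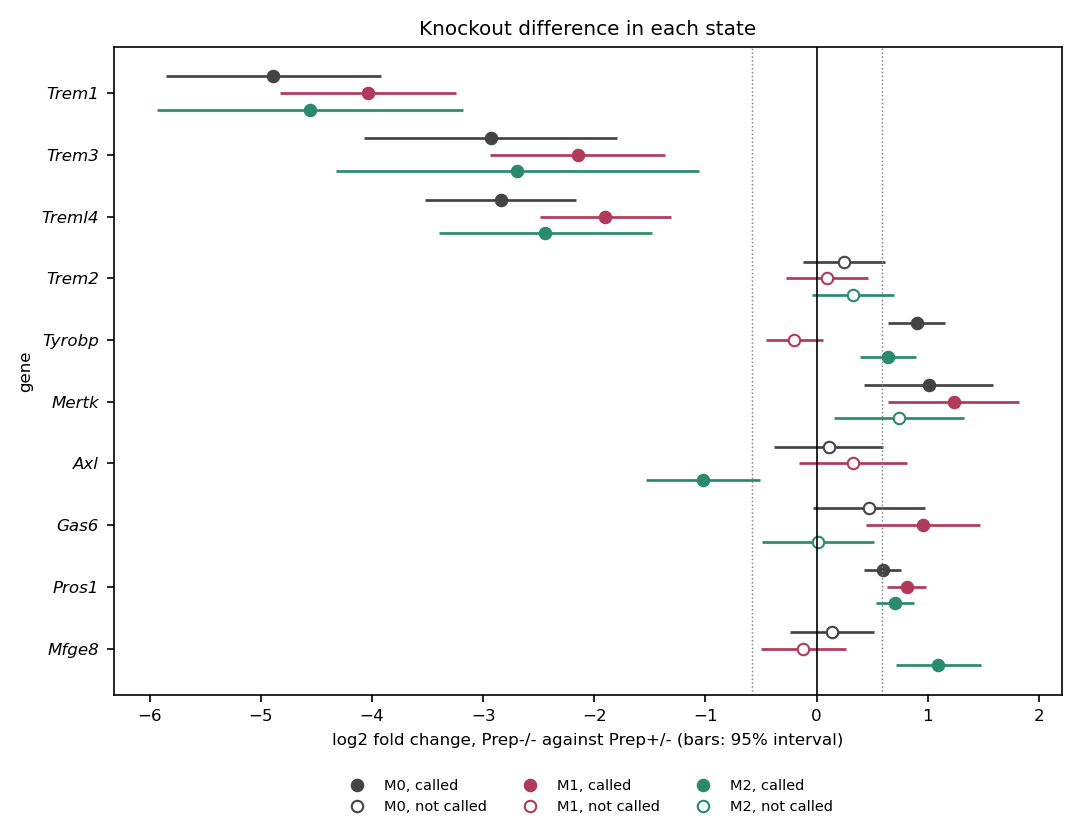
Log2 fold change of each of the 10 genes in *Prep*-/- against *Prep*+/- BMDMs (x axis) in M0, M1 and M2 (colours), with the 95% interval as a bar, filled points for called genes, open points for the others and dotted lines at a fold change of 1.5 in either direction. *Trem1*, *Trem3* and *Treml4* lie left of the lower line in all 3 states, and *Pros1* lies right of zero in all 3. The fitted value of *Trem1* in M2 is not a bound, since *Trem1* was at the floor of 3 counts there.

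*Trem1*, the inflammatory amplifier, was the member with the largest fitted knockout difference in M0 and M1. In M0 it stood at 4.83, 8.37 and 10.02 CPM in *Prep*+/- BMDMs (106, 212 and 250 counts) and at 0.332, 0.126 and 0.323 CPM in *Prep*-/- BMDMs (7, 3 and 7 counts). In M1 it stood at 23.6, 25.9 and 22.6 CPM against 0.624, 1.87 and 1.88 CPM. In M2 it stood at 1.36, 1.47 and 2.23 CPM against 0, 0.050 and 0.144 CPM, the latter from 0, 1 and 3 counts. The genotypes did not overlap in any state. *Trem1* fell in *Prep*-/- BMDMs, with a log2 fold change of -4.89 in M0 (SE 0.46, adjusted p = 1.12e-06, 29.6-fold lower) and of -4.03 in M1 (SE 0.37, adjusted p = 5.26e-06, 16.4-fold lower). In M2 it was at least 11.4-fold lower, taking 3 counts per library as the floor (adjusted p = 0.000121). Stimulated *Prep*-/- M1 BMDMs held less *Trem1* than unstimulated *Prep*+/- M0 BMDMs, with every *Prep*-/- M1 library below every *Prep*+/- M0 library.

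*Trem3*, a mouse receptor that also pairs with DAP12, followed the same direction with a smaller difference. It stood at 2.28, 4.50 and 2.93 CPM in *Prep*+/- M0 and at 0.332, 0.377 and 0.554 CPM in *Prep*-/- M0. In M1 the values were 45.9, 62.2 and 52.2 CPM against 5.40, 13.7 and 17.0 CPM. In M2 they were 1.41, 0.629 and 0.936 CPM against 0.402, 0 and 0.0479 CPM (8, 0 and 1 counts). All *Prep*-/- libraries lay below all *Prep*+/- libraries of the same state. *Trem3* fell in each state, with a log2 fold change of -2.93 in M0 (SE 0.54, adjusted p = 0.000339), of -2.15 in M1 (SE 0.37, adjusted p = 0.000572) and of -2.69 in M2 (SE 0.77, adjusted p = 0.0180). The M2 call was lost without *Prep*-/- M2 replicate 3 (-2.26, adjusted p = 0.0624), without *Prep*-/- M2 replicate 2 (-2.12, adjusted p = 0.0733), without *Prep*+/- M2 replicate 1 (-2.34, adjusted p = 0.0750) and with only the libraries compared in the fit (adjusted p = 0.0634). Without *Prep*-/- M2 replicate 1, the library with 8 counts, the fitted value was -5.04 and rested on 0 and 1 counts. Unlike *Trem1*, *Trem3* in *Prep*-/- M1 exceeded its level in *Prep*+/- M0 in every library.

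*Treml4*, a TREM-like receptor that binds late apoptotic and necrotic cells, stood at 3.37, 5.37 and 5.21 CPM in *Prep*+/- M0 and at 0.854, 0.712 and 0.369 CPM in *Prep*-/- M0. The values were 9.96, 12.0 and 8.73 CPM against 2.34, 2.92 and 2.95 CPM in M1, and 0.895, 0.755 and 1.11 CPM against 0.302, 0.050 and 0.144 CPM in M2. Again no library of one genotype overlapped the other. *Treml4* fell in every state, with a log2 fold change of -2.84 in M0 (SE 0.32, adjusted p = 5.14e-06), of -1.90 in M1 (SE 0.28, adjusted p = 0.000204) and of -2.44 in M2 (SE 0.45, adjusted p = 0.000929).

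*Trem2*, the abundant receptor of the family, stood at 829, 707 and 643 CPM in *Prep*+/- M0 and at 811, 622 and 1151 CPM in *Prep*-/- M0, the highest value being in the replicate 3 that stood apart. In M1 the values were 201, 246 and 233 CPM against 267, 212 and 247 CPM, and in M2 710, 654 and 684 CPM against 887, 765 and 925 CPM. The genotypes overlapped in M0 and M1, and did not in M2. The knockout difference of *Trem2* was 0.25 on the log2 scale in M0 (95% interval -0.12 to 0.62), 0.09 in M1 (-0.28 to 0.46) and 0.33 in M2 (-0.04 to 0.70), with adjusted p = 0.258, 0.699 and 0.183. Without *Prep*-/- M0 replicate 3 the M0 difference was -0.03 (adjusted p = 0.870). The lowest bound of these intervals, -0.28, lies above the upper bounds of the knockout intervals of the 3 other receptors, of which the highest is -1.06.

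**Figure D2:**
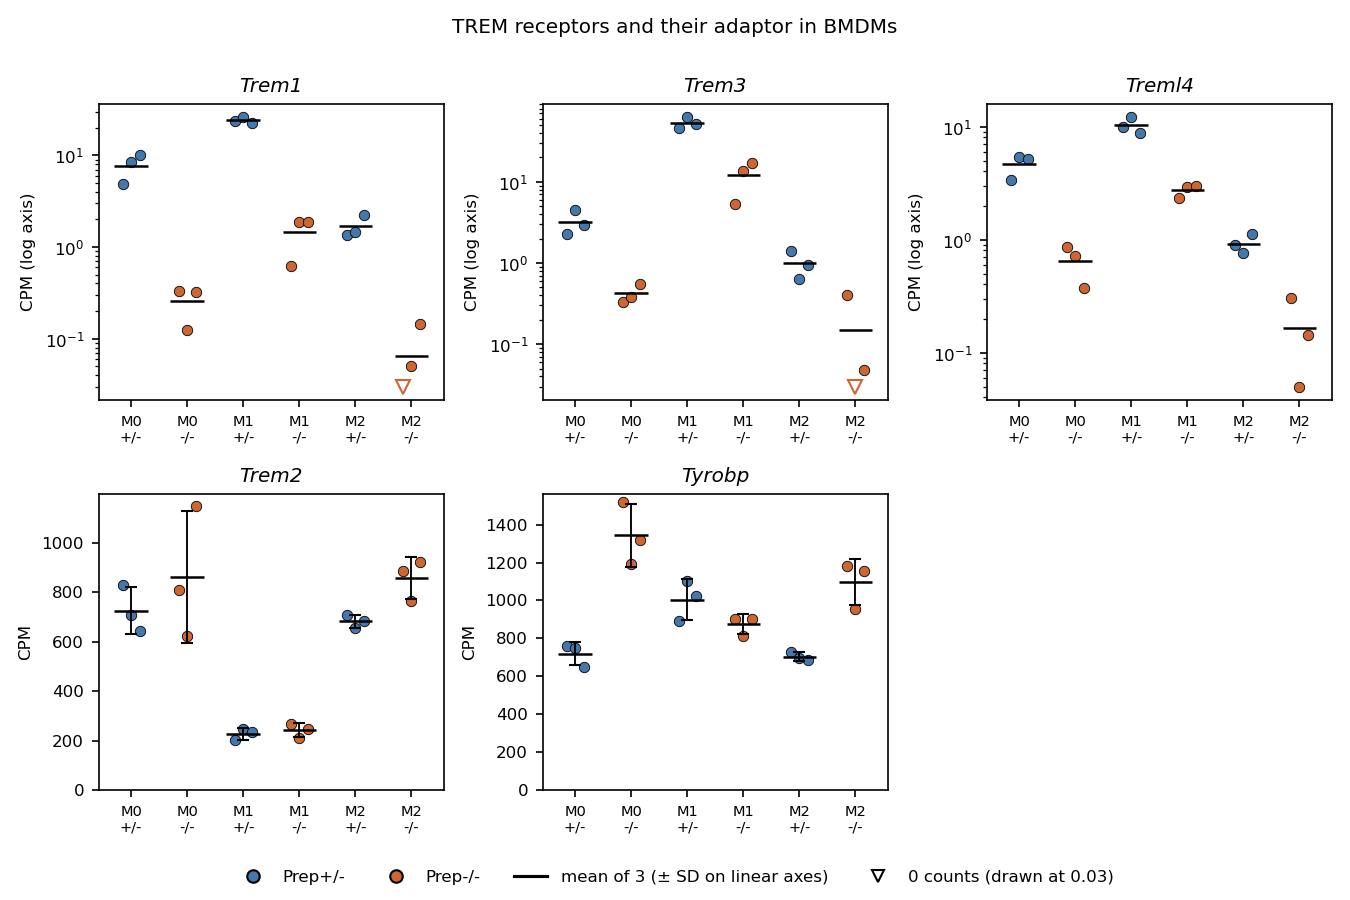
CPM of the 4 TREM receptors and *Tyrobp* (y axes, log scale for *Trem1*, *Trem3* and *Treml4*, linear from 0 for *Trem2* and *Tyrobp*) in each library of the 6 groups (x axis), with the mean of 3 as a line and the SD as a bar on the linear axes. All *Prep*-/- points of *Trem1*, *Trem3* and *Treml4* lie below the *Prep*+/- points of the same state, and an open triangle marks a library with 0 counts.

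*Tyrobp* moved in the other direction from *Trem1* in M0 and M2. It stood at 758, 749 and 650 CPM in *Prep*+/- M0 and at 1519, 1193 and 1319 CPM in *Prep*-/- M0. In M1 the values were 890, 1101 and 1024 CPM against 904, 814 and 905 CPM, and in M2 730, 694 and 687 CPM against 1182, 958 and 1154 CPM. The genotypes were apart in M0 and M2 and overlapped in M1. *Tyrobp* rose in *Prep*-/- BMDMs by 0.90 on the log2 scale in M0 (SE 0.12, adjusted p = 2.31e-05, 1.87-fold) and by 0.64 in M2 (SE 0.12, adjusted p = 0.00103, 1.56-fold). In M1 the difference was -0.20 (95% interval -0.46 to 0.05, adjusted p = 0.201). The M2 rise lost its fold change of 1.5 without *Prep*-/- M2 replicate 1 (0.58, adjusted p = 0.00880). Within a library, the log2 ratio of *Trem2* to *Tyrobp* counts was 0.01 ± 0.11 in *Prep*+/- M0 and -0.68 ± 0.42 in *Prep*-/- M0, and its ranges did not overlap. In M2 it was -0.04 ± 0.04 in *Prep*+/- and lower, at -0.35 ± 0.05, in *Prep*-/- BMDMs. In M1 it was -2.15 ± 0.014 in *Prep*+/- and higher, at -1.86 ± 0.09, in *Prep*-/- BMDMs, again without overlap.

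Along the cluster on chromosome 17, the fall was found in the 3 adjacent genes from *Trem1* to *Treml4* and in none of the other 3 members of the family that were tested. The cluster spans 238.0 kb with 9 annotated *Trem* and *Treml* genes, of which 6 were in the count table. *Treml2*, 24.1 kb beyond *Treml4*, was higher in *Prep*-/- M1 (1.41 on the log2 scale, SE 0.26, adjusted p = 0.000852) and not called in M0 (-0.62, adjusted p = 0.111) or M2 (-0.47, adjusted p = 0.251). *Trem2* and *Treml1* were called in no state, and neither were the next genes tested, *Nfya* and *Oard1*. The coding transcripts closest to *Trem1*, those of *Trem5* and *Trem4*, share 80.7% identity over 788 bases and 81.4% over 472 bases with it and were not in the count table. *Trem1*, *Trem3* and *Treml4* share no stretch of at least 100 bases at 80% identity with each other. An unnamed long non-coding RNA is annotated on the opposite strand across all 3 genes. A transcript of that RNA shares 823 bases at 100% identity with that of *Trem1*. None of its transcripts shares a stretch of at least 100 bases at 80% identity with those of *Trem3* and *Treml4*. Shorter overlaps were not searched. Whether reads were counted by strand is not given in the sources used here. Reads of *Trem1* and of that RNA thus may not be told apart over the shared bases.

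**Figure D3:**
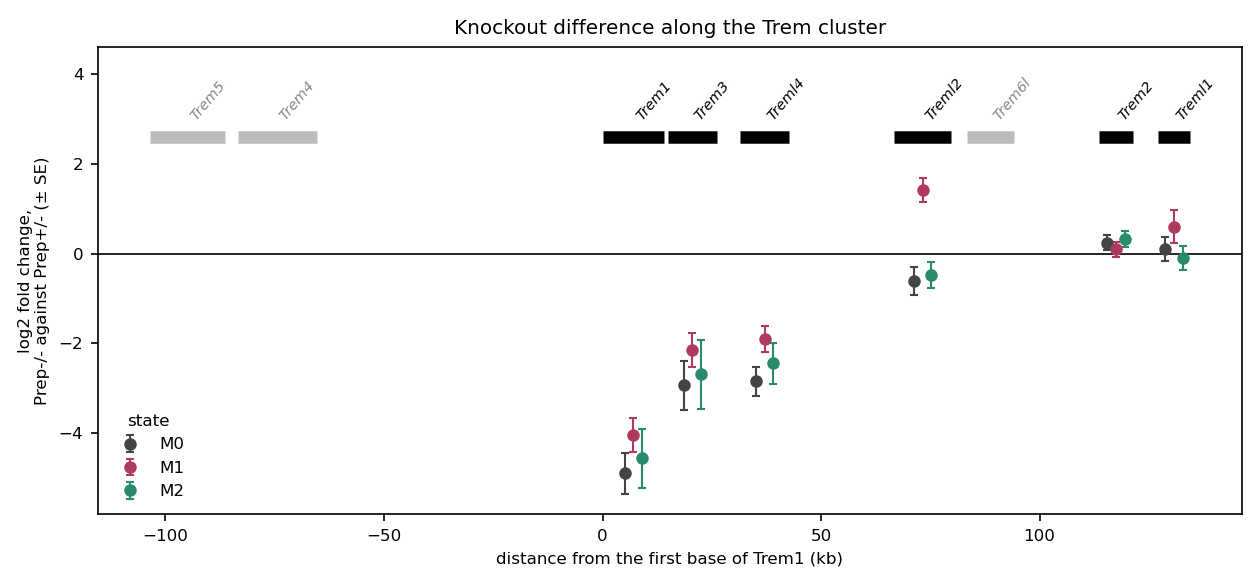
Log2 fold change in *Prep*-/- against *Prep*+/- BMDMs (y axis, mean ± SE from the fit) of the 6 *Trem* and *Treml* genes tested, placed by distance from the first base of *Trem1* in kb (x axis), with the gene extents as bars on top (grey for genes not tested). The neighbours *Trem1*, *Trem3* and *Treml4* lie between -4.89 and -1.90 in all 3 states, while *Trem2* and *Treml1* lie between -0.10 and 0.60 and were called in no state.

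Because TREM1 is also a receptor of neutrophils, markers of neutrophils and granulocyte precursors were read beside these results. All 12 of them were in the table, 6 were tested, and none was at 0 in all libraries, with *Ly6g* at most 0.142 CPM and *Elane* at most 0.410 CPM. The highest were *S100a8*, at most 65.4 CPM (in *Prep*+/- M1), and *S100a9*, *Ngp* and *Ltf*, at most 46.2, 45.1 and 28.8 CPM (in *Prep*-/- M0). The summed level of the 12 was 32.0 to 44.2 CPM in *Prep*+/- M0 and 68.5 to 156 CPM in *Prep*-/- M0, opposite to *Trem1*. It was 79.5 to 146 CPM in *Prep*+/- M1 and 51.5 to 71.9 CPM in *Prep*-/- M1, in the direction of *Trem1*, and 25.6 to 31.4 CPM and 31.3 to 47.3 CPM in M2. Megakaryocyte and platelet markers, nearly all of them *Pf4*, summed to 856 to 1471 CPM in *Prep*+/- M1 and to 264 to 383 CPM in *Prep*-/- M1, also in that direction. Of the 3 of these markers tested, 2 were called lower and 1 higher in *Prep*-/- M1. Of the 6 neutrophil and granulocyte markers tested, 5 were called higher in *Prep*-/- M0 and 2 lower in *Prep*-/- M1. Macrophage markers summed to 19475 to 22927 CPM in *Prep*+/- M0 and to 31054 to 48894 CPM in *Prep*-/- M0, with 6 of 10 called higher, as *Tyrobp* was. In M2 they summed to 10801 to 12935 CPM and 14661 to 20383 CPM, with 2 of 10 called higher, beside the M2 rise of *Tyrobp*. In M1 they summed to 46864 to 48335 CPM and 32024 to 37893 CPM, with 1 of 10 called lower, beside the lower knockout difference of *Tyrobp* in M1. The part of these markers in the M1 fall of *Trem1* and in the differences of *Tyrobp* was not tested.

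*Mertk*, the kinase that engulfs apoptotic cells in resting macrophages, stood at 55.1, 54.8 and 58.6 CPM in *Prep*+/- M0 and at 127, 142 and 69.9 CPM in *Prep*-/- M0. In M1 it stood at 45.7, 27.9 and 34.7 CPM against 102, 73.4 and 79.1 CPM, and in M2 at 33.5, 45.5 and 28.7 CPM against 68.7, 74.2 and 37.1 CPM. The lowest *Prep*-/- library in M0 and in M2 was replicate 3, and the genotypes overlapped in M2 through it. *Mertk* rose in *Prep*-/- BMDMs by 1.01 on the log2 scale in M0 (SE 0.27, adjusted p = 0.00620) and by 1.23 in M1 (SE 0.28, adjusted p = 0.00323). In M2 the difference was 0.74 (95% interval 0.16 to 1.32, adjusted p = 0.0597) and was not called. It was called without *Prep*-/- M2 replicate 3 (1.01, adjusted p = 0.00567), without *Prep*+/- M2 replicate 2 (0.92, adjusted p = 0.0470) and by DESeq2 (0.76, adjusted p = 0.0285). In M2 libraries of the same replicate number deviated together, and with the replicate number as a block the difference of *Mertk* was 0.71 (adjusted p = 0.0154).

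*Axl*, the kinase that inflammatory stimuli induce, stood at 22.5, 23.3 and 28.7 CPM in *Prep*+/- M0 and at 38.3, 26.4 and 15.6 CPM in *Prep*-/- M0, where the spread of the *Prep*-/- libraries enclosed all *Prep*+/- values. In M1 it stood at 32.0, 32.3 and 34.2 CPM against 50.8, 33.7 and 39.3 CPM. In M2 it stood at 20.5, 17.6 and 16.5 CPM against 7.998, 8.55 and 10.3 CPM, without overlap. The difference was 0.11 on the log2 scale in M0 (95% interval -0.38 to 0.60, adjusted p = 0.726) and 0.33 in M1 (-0.16 to 0.82, adjusted p = 0.271). Without *Prep*-/- M0 replicate 3 the M0 difference of *Axl* was 0.37 (adjusted p = 0.0978). In M2 *Axl* fell by 1.02 (SE 0.24, adjusted p = 0.00544, 2.03-fold lower). *Mertk* and *Axl* thus differed in their balance within a library. The log2 ratio of *Mertk* to *Axl* counts was 1.18 ± 0.14 in *Prep*+/- M0 and 2.10 ± 0.35 in *Prep*-/- M0 (SD, n = 3). The corresponding ratios were 0.11 ± 0.37 and 1.04 ± 0.07 for M1, and 0.96 ± 0.36 and 2.69 ± 0.72 for M2. In each state every *Prep*-/- library had the higher ratio.

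*Gas6*, the ligand of both kinases, stood at 595, 485 and 516 CPM in *Prep*+/- M0 and at 601, 838 and 778 CPM in *Prep*-/- M0. In M1 it stood at 62.8, 54.4 and 63.6 CPM against 126, 105 and 119 CPM, and in M2 at 381, 415 and 313 CPM against 441, 488 and 193 CPM, the lowest again in *Prep*-/- M2 replicate 3. The genotypes were apart in M1, nearly touched in M0 and overlapped in M2. *Gas6* rose in *Prep*-/- M1 by 0.95 on the log2 scale (SE 0.24, adjusted p = 0.00674, 1.94-fold). The difference was 0.47 in M0 (95% interval -0.03 to 0.98, adjusted p = 0.110) and 0.02 in M2 (-0.49 to 0.52, adjusted p = 0.973), the latter 0.34 without *Prep*-/- M2 replicate 3 (adjusted p = 0.103). *Gas6* overlaps the protein-coding gene *Tmem255b* on the opposite strand, so that some of its reads may not be told apart.

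*Pros1*, which encodes protein S, had the smallest standard errors of the 10 in all 3 knockout comparisons. It stood at 54.4, 49.8 and 54.7 CPM in *Prep*+/- M0 and at 83.0, 81.2 and 75.4 CPM in *Prep*-/- M0. In M1 it stood at 16.4, 15.4 and 17.3 CPM against 27.4, 29.7 and 28.9 CPM, and in M2 at 58.7, 63.0 and 61.3 CPM against 100.4, 101.7 and 95.9 CPM. The genotypes did not overlap in any state. *Pros1* rose by 0.59 on the log2 scale in M0 (SE 0.08, adjusted p = 2.44e-05, 1.51-fold), by 0.81 in M1 (SE 0.08, adjusted p = 1.41e-05, 1.75-fold) and by 0.70 in M2 (SE 0.08, adjusted p = 2.22e-05, 1.63-fold). The M0 rise lies at the fold change limit and passed below it without *Prep*+/- M0 replicate 2 (0.53), *Prep*-/- M0 replicate 1 (0.57) or *Prep*-/- M0 replicate 2 (0.58), with adjusted p of at most 0.000492 each time.

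*Mfge8* stood at 84.5, 76.6 and 77.9 CPM in *Prep*+/- M0 and at 103, 58.8 and 102 CPM in *Prep*-/- M0. In M1 it stood at 76.1, 83.0 and 86.4 CPM against 83.7, 65.9 and 76.0 CPM. In M2 it stood at 85.3, 89.8 and 86.9 CPM against 211, 141 and 207 CPM, with no overlap. The difference of *Mfge8*, whose product bridges dying cells to integrins, was 0.14 on the log2 scale in M0 (95% interval -0.24 to 0.52) and -0.12 in M1 (-0.50 to 0.26), with adjusted p = 0.550 and 0.621. In M2 *Mfge8* rose by 1.09 (SE 0.18, adjusted p = 0.000385, 2.13-fold).

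**Figure D4:**
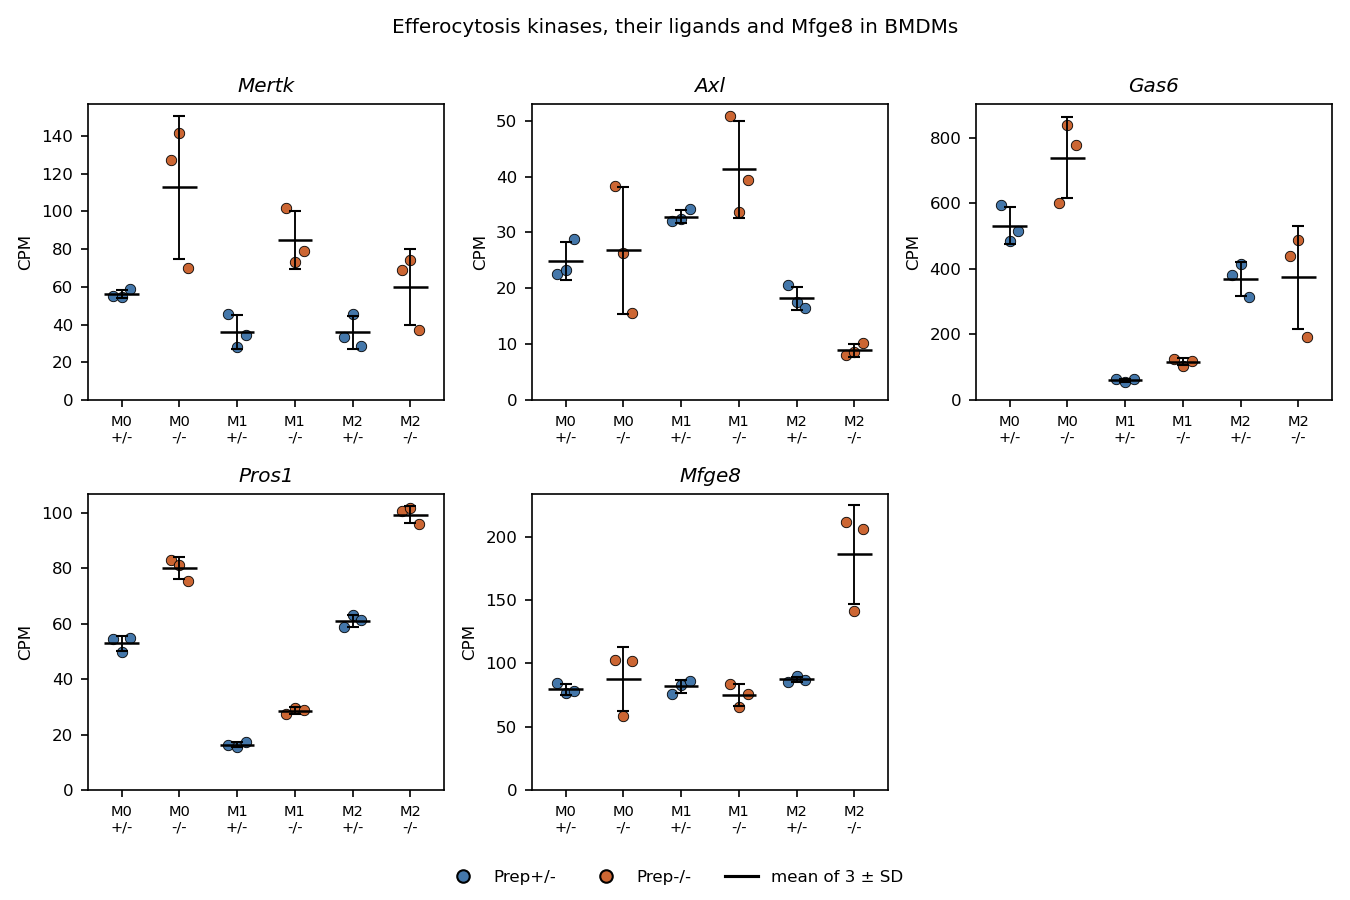
CPM of *Mertk*, *Axl*, *Gas6*, *Pros1* and *Mfge8* (y axes, linear from 0) in each library of the 6 groups (x axis), with the mean of 3 as a line and the SD as a bar. *Pros1* is higher in every *Prep*-/- library than in the *Prep*+/- libraries of the same state, and *Axl* is lower and *Mfge8* higher in *Prep*-/- in M2.

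Whether the knockout difference depended on the state was tested as an interaction, called at an adjusted p under 0.05. Between M1 and M0, 1 member was called lower (*Tyrobp*) and 0 higher by edgeR and by DESeq2, with 1 higher at an unadjusted p under 0.05 (*Treml4*), where 10.9% of all genes were lower and 13.7% higher. The knockout difference of *Tyrobp* was lower in M1 than in M0 (-1.10 on the log2 scale, SE 0.17, adjusted p = 0.000333). Between M2 and M0, 1 was called lower (*Axl*, -1.13, SE 0.33, adjusted p = 0.0427) and 1 higher (*Mfge8*, 0.95, SE 0.25, adjusted p = 0.0272), against 4.48% and 5.16% of all genes. Of 12 fits that each left out 1 library, the *Axl* difference was called in 3, those without *Prep*-/- M0 replicate 3, *Prep*+/- M2 replicate 3 or *Prep*-/- M2 replicate 3, and lost in the other 9, where adjusted p reached 0.104. The *Mfge8* difference was called in 5, those without *Prep*+/- M0 replicate 1, *Prep*-/- M0 replicate 1, 2 or 3 or *Prep*-/- M2 replicate 2, and lost in the other 7, where adjusted p reached 0.0698. For the 3 receptors that fell, the differences between states were not called. Those from M0 to M1 were 0.85 for *Trem1* (95% interval -0.44 to 2.14), 0.78 for *Trem3* (-0.63 to 2.19) and 0.94 for *Treml4* (0.05 to 1.83, adjusted p = 0.113). For *Pros1* they were 0.22 (-0.03 to 0.46) in M1 and 0.11 (-0.13 to 0.35) in M2, and for *Mertk* 0.22 (-0.59 to 1.04) and -0.27 (-1.08 to 0.55).

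The response to LPS was compared within each genotype. In *Prep*+/- BMDMs 3 members were higher in M1 than in M0 (*Trem1*, *Trem3* and *Treml4*) and 3 lower (*Trem2*, *Gas6* and *Pros1*), against 16.7% and 20.9% of all genes. In *Prep*-/- BMDMs 4 were higher (the same 3 and *Axl*) and 4 lower (the same 3 and *Tyrobp*), against 20.9% and 21.0% of all genes. Among the TREM members, the receptors that fell with the knockout were those that rose with LPS. This match did not hold for *Treml2*, a family gene outside the list. *Treml2* rose with LPS by 1.99 on the log2 scale in *Prep*+/- (adjusted p = 1.70e-05) and by 4.02 in *Prep*-/- (adjusted p = 1.70e-08). It was called lower with the knockout in no state and higher in *Prep*-/- M1 (1.41, adjusted p = 0.000852). *Treml1* fell with LPS (-2.44 and -1.95) and was not called for the knockout in any state. *Trem3* rose by 4.04 on the log2 scale in *Prep*+/- (SE 0.41, adjusted p = 4.61e-07, 16.4-fold) and by 4.82 in *Prep*-/- BMDMs (SE 0.51, adjusted p = 7.90e-07, 28.3-fold). *Trem1* rose by 1.63 and 2.48 (adjusted p = 0.000425 and 0.000577), and *Treml4* by 1.14 and 2.08 (adjusted p = 0.00189 and 4.99e-05). *Trem2* moved against them, and fell in *Prep*+/- (-1.68, SE 0.18, adjusted p = 7.70e-07) and in *Prep*-/- BMDMs (-1.83, SE 0.18, adjusted p = 3.22e-07).

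Both kinase ligands fell with LPS. *Gas6* fell in *Prep*+/- (-3.14 on the log2 scale, SE 0.26, adjusted p = 4.54e-08, 8.83-fold lower) and in *Prep*-/- BMDMs (-2.66, SE 0.25, adjusted p = 2.28e-07). *Pros1* fell in both as well (-1.69, SE 0.08, adjusted p = 2.38e-10, and -1.48, SE 0.08, adjusted p = 6.66e-10). *Tyrobp* fell by 0.62 in *Prep*-/- BMDMs (SE 0.12, adjusted p = 0.000356), a call lost without *Prep*-/- M0 replicate 1 (-0.52), and differed by 0.48 in *Prep*+/- BMDMs (adjusted p = 0.00293), which is under the fold change of 1.5. *Axl* was 0.63 higher in *Prep*-/- M1 than in *Prep*-/- M0 (SE 0.23, adjusted p = 0.0288), a call that was lost without *Prep*-/- M0 replicate 3 (0.32, adjusted p = 0.137), *Prep*-/- M0 replicate 2 (0.58, adjusted p = 0.0694), *Prep*-/- M1 replicate 1 (0.41, adjusted p = 0.163) or *Prep*-/- M1 replicate 3 (0.62, adjusted p = 0.0518) and with only the libraries compared (adjusted p = 0.131). *Mertk* differed by -0.64 in *Prep*+/- (95% interval -1.22 to -0.05, adjusted p = 0.0627) and by -0.41 in *Prep*-/- BMDMs (-0.99 to 0.16, adjusted p = 0.205). Against a fold change of 1.5 by glmTreat, the M1 calls of *Tyrobp* (adjusted p = 0.419) and *Axl* (0.471) were lost. Neither difference of *Mertk* was called. That in *Prep*+/- was called with only the libraries compared (-0.63, adjusted p = 0.00451) and with the replicate block (-0.65, adjusted p = 0.00825), and each was called without 1 library (*Prep*+/- M1 replicate 1, -0.87, adjusted p = 0.0283, and *Prep*-/- M0 replicate 3, -0.70, adjusted p = 0.0295).

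**Figure D5:**
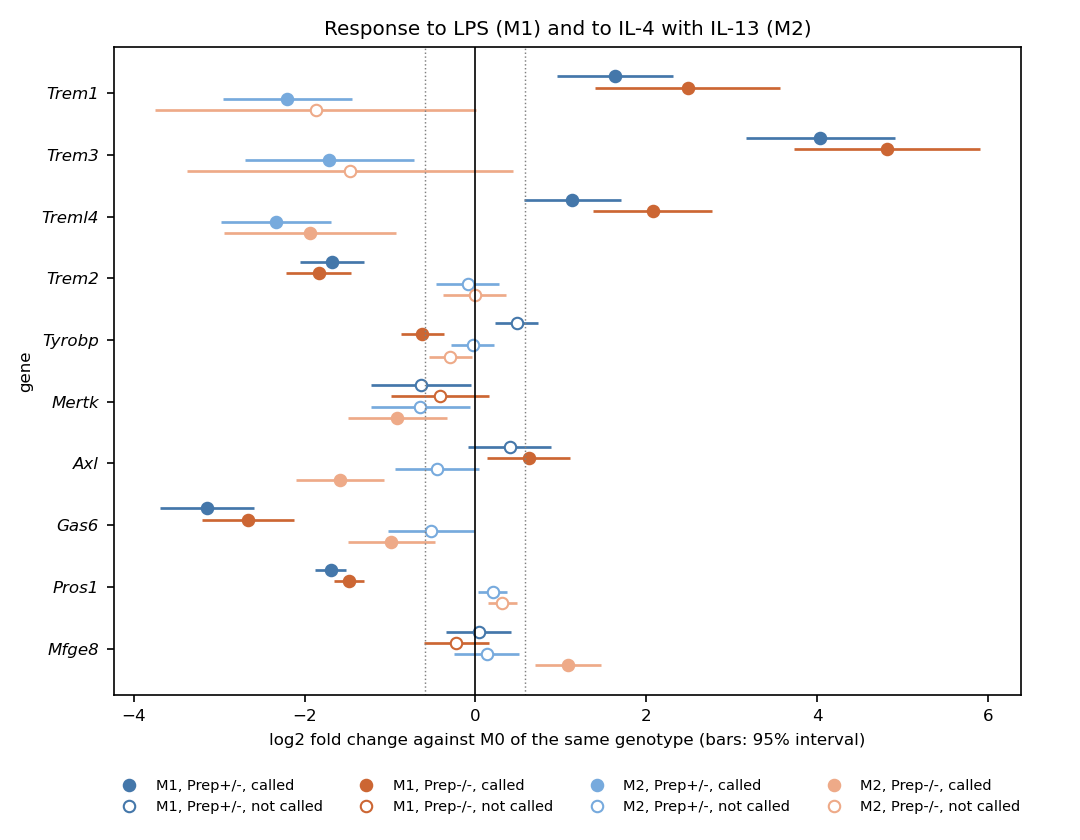
Log2 fold change of each of the 10 genes against M0 of the same genotype (x axis) for LPS (M1) and for IL-4 with IL-13 (M2) in *Prep*+/- and *Prep*-/- BMDMs (colours), with the 95% interval as a bar, filled points for called genes and dotted lines at a fold change of 1.5. *Trem1*, *Trem3* and *Treml4* lie on opposite sides of zero in M1 and M2, and *Axl* and *Mfge8* lie past the lines in M2 in *Prep*-/- BMDMs. The fitted M2 value of *Trem1* in *Prep*-/- BMDMs rests on 0 to 3 counts per library.

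With IL-4 and IL-13, 0 members were called higher in *Prep*+/- BMDMs by edgeR and by DESeq2, with 1 higher at an unadjusted p under 0.05 (*Pros1*), and 3 were called lower (*Trem1*, *Trem3* and *Treml4*), against 6.09% and 6.77% of all genes. In *Prep*-/- BMDMs 1 was higher (*Mfge8*) and 4 lower (*Treml4*, *Mertk*, *Axl* and *Gas6*), against 14.7% and 15.5% of all genes. In *Prep*+/- BMDMs the log2 fold change of *Trem1* was -2.20 (SE 0.35, adjusted p = 0.000281), that of *Treml4* -2.33 (SE 0.31, adjusted p = 3.59e-05) and that of *Trem3* -1.71 (SE 0.47, adjusted p = 0.0163). The call of *Trem3* was lost without *Prep*+/- M0 replicate 2 (-1.40, adjusted p = 0.0874), *Prep*+/- M2 replicate 2 (-1.46, adjusted p = 0.0812) or *Prep*+/- M2 replicate 3 (-1.69, adjusted p = 0.0552). In *Prep*-/- BMDMs, where these genes were already low, *Treml4* fell by 1.93 (SE 0.48, adjusted p = 0.00358), while the differences of *Trem1* (adjusted p = 0.0998) and *Trem3* (adjusted p = 0.204) were not detectable at 0 to 12 counts per library. The difference of *Trem3* was called without *Prep*-/- M2 replicate 1 (-3.84, adjusted p = 0.0333).

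Among the efferocytosis genes, the M2 differences in *Prep*-/- BMDMs were a fall of *Axl* (-1.58 on the log2 scale, SE 0.24, adjusted p = 6.81e-05), of *Gas6* (-0.98, SE 0.24, adjusted p = 0.00330) and of *Mertk* (-0.91, SE 0.27, adjusted p = 0.0124), and a rise of *Mfge8* (1.09, SE 0.18, adjusted p = 0.000148). Without replicate 3 of both *Prep*-/- M0 and *Prep*-/- M2 the values were -1.96, -0.64, -0.91 and 1.13, with adjusted p of 1.24e-06, 0.00514, 0.00206 and 0.000332. The call of *Mertk* was lost without *Prep*-/- M0 replicate 2 (-0.73, adjusted p = 0.0541). In *Prep*+/- BMDMs the same genes differed by -0.45 (*Axl*, 95% interval -0.94 to 0.04), -0.52 (*Gas6*, -1.03 to -0.02), -0.65 (*Mertk*, -1.23 to -0.06) and 0.13 (*Mfge8*, -0.25 to 0.51), and none was called. *Mertk* was called there with only the libraries compared in the fit (-0.64, adjusted p = 0.00730) and with the replicate block (-0.66, adjusted p = 0.000268), so that which genotype shows the M2 fall of *Mertk* changes with the libraries in the fit. *Pros1* differed by 0.31 in *Prep*-/- BMDMs (SE 0.08, adjusted p = 0.00446), which is under the fold change of 1.5. *Trem2* differed by -0.09 in *Prep*+/- (-0.46 to 0.28) and by 0.00 in *Prep*-/- BMDMs (-0.37 to 0.36), and *Tyrobp* by -0.03 (-0.29 to 0.22) and -0.29 (-0.55 to -0.04, adjusted p = 0.0601). Against a fold change of 1.5 by glmTreat, the M2 calls of *Trem3* in *Prep*+/- (adjusted p = 0.0882) and of *Mertk* (0.185) and *Gas6* (0.0899) in *Prep*-/- BMDMs were lost, and with only the libraries compared in the fit so were those of *Mertk* (0.0778) and *Gas6* (0.0649). Comparisons with M0 within a genotype share the M0 libraries.

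The other genes of these pathways were counted from 3 lists of 74 genes, chosen with earlier results of these data known. Of the partners of TREM receptors and DAP12, 21 of 24 were tested, and 5 rose and 2 fell in *Prep*-/- M0 BMDMs (23.8% and 9.52%, against 15.4% and 17.2% of all genes). In M1 the counts were 4 that rose and 3 that fell (19.0% and 14.3%, against 12.3% and 10.2%). In M2 a single gene moved each way (4.76% each, against 6.37% and 9.82%). This list had a median log2 fold change of 0.33, -0.06 and -0.10 beside 0.02, 0.04 and 0.03 for all genes. The largest rise and fall in M0 were those of *Cd300c2* (1.23, adjusted p = 3.92e-06) and *Clec5a* (-1.55, adjusted p = 0.00220), a DAP12-linked lectin. In M1 they were *Treml2* and *Pilrb1* (-1.50, adjusted p = 0.00290), and in M2 *Syk* (0.83, adjusted p = 0.0109), the kinase that DAP12 recruits, and *Sirpb1c* (-1.42, adjusted p = 5.51e-05). *Syk* was also called higher in M0 (0.82, adjusted p = 0.00552) and *Clec5a* lower in M1 (-0.95, adjusted p = 0.0457). *Sirpb1c* went the other way in M1, where it was called higher (1.04, adjusted p = 0.000256). With LPS, 12 of the 21 rose and 3 fell in each genotype (57.1% and 14.3%), against 16.7% and 20.9% of all genes in *Prep*+/- and 20.9% and 21.0% in *Prep*-/- BMDMs. With IL-4 and IL-13, 2 rose and 10 fell in *Prep*+/- (9.52% and 47.6%, against 6.09% and 6.77%) and 2 rose and 9 fell in *Prep*-/- BMDMs (9.52% and 42.9%, against 14.7% and 15.5%).

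Of the other apoptotic cell receptors and bridging molecules, 19 of 26 were tested. In *Prep*-/- M0 BMDMs 7 were higher and 7 lower (36.8% each, against 15.4% and 17.2% of all genes). In M1 2 were higher and 6 lower (10.5% and 31.6%, against 12.3% and 10.2%), and in M2 4 were higher and 2 lower (21.1% and 10.5%, against 6.37% and 9.82%), with medians of 0.20, -0.11 and 0.06. *Thbs1*, thrombospondin-1, which bridges apoptotic cells to CD36 and integrins, was higher by 4.63 in M0 (SE 0.33, adjusted p = 1.57e-07) and by 2.11 in M2 (SE 0.33, adjusted p = 0.000231), and lower in M1 (-1.66, SE 0.29, adjusted p = 0.000586). Its knockout difference was lower in M1 than in M0 by interaction (-6.30, SE 0.44, adjusted p = 5.98e-07). *Cd300lf*, a phosphatidylserine receptor, was lower in M0 (-1.51, adjusted p = 0.000193), *Scarb1* higher in M1 (1.15, adjusted p = 5.26e-06) and *Havcr2*, which encodes TIM-3, lower in M2 (-1.09, adjusted p = 0.000359). *Havcr2* was also called lower in M0 (-1.32, adjusted p = 2.22e-05) and M1 (-1.18, adjusted p = 0.000272). With LPS, 26.3% of the 19 rose and 42.1% fell in *Prep*+/- BMDMs, against 16.7% and 20.9% of all genes. In *Prep*-/- BMDMs 31.6% rose and 47.4% fell, against 20.9% and 21.0%. With IL-4 and IL-13, 21.1% rose and 42.1% fell in *Prep*+/- BMDMs, against 6.09% and 6.77%. In *Prep*-/- BMDMs 31.6% rose and 36.8% fell, against 14.7% and 15.5%.

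Of the genes for engulfment and corpse handling, 23 of 24 were tested, and 4 were higher and 2 lower in M0 (17.4% and 8.70%, against 15.4% and 17.2% of all genes). In M1 2 were called, both higher (8.70%, against 12.3%), and in M2 3 were higher and 1 lower (13.0% and 4.35%, against 6.37% and 9.82%), with medians of 0.08, 0.05 and 0.16. *Abca1*, which exports cholesterol after engulfment, was higher in *Prep*-/- M0 (2.47, SE 0.20, adjusted p = 3.72e-07) and M2 (2.51, SE 0.20, adjusted p = 1.23e-06). *Elmo1*, part of the complex that activates RAC1 in engulfment, was lower in M0 (-1.53, SE 0.16, adjusted p = 2.35e-06) and M2 (-1.01, SE 0.16, adjusted p = 0.000237). *Pparg*, a lipid-sensing nuclear receptor, was higher in *Prep*-/- M1 (1.34, SE 0.22, adjusted p = 0.000367). With LPS, 17.4% of the 23 rose and 13.0% fell in *Prep*+/- BMDMs, against 16.7% and 20.9% of all genes. In *Prep*-/- BMDMs 13.0% rose and 21.7% fell, against 20.9% and 21.0%. With IL-4 and IL-13, 17.4% rose and 8.70% fell in *Prep*+/- BMDMs, against 6.09% and 6.77%. In *Prep*-/- BMDMs 21.7% rose and 17.4% fell, against 14.7% and 15.5%.

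The genes whose log2 CPM followed each member most closely over the 18 libraries were found among the 9601 genes with a mean of at least 5 CPM. Pearson's r was 0.956 for *Trem1* with *P4ha2*, 0.967 for *Trem2* with *Cenpa*, 0.983 for *Trem3* with *Olfml2b* and 0.951 for *Treml4* with *Dmwd* and with *Olfml2b*. It was 0.908 for *Tyrobp* with *Unc93b1*, 0.967 for *Mertk* with *Atp8a1*, 0.935 for *Axl* with *Itprip*, 0.988 for *Gas6* with *Arhgap19*, 0.985 for *Pros1* with *Cdip1* and 0.944 for *Mfge8* with *Pea15a*. These values describe the 18 libraries, which fall into 6 groups and share the group differences. *Olfml2b* was thus the closest or second closest gene for both *Trem3* and *Treml4*.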

How the data were processed

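RNA was taken from BMDMs with TRIzol, made into stranded mRNA libraries and sequenced from both ends. The authors trimmed the reads with Trimmomatic (0.36) and aligned them to GRCm39 with HISAT2 (2.2.1.0), per the submitters' processing notes, and deposited raw counts per gene with no normalization. The annotation release, strand setting and handling of reads with several matches are not given in the sources used here. Grouping follows the sample labels. No sample column was left unmapped (0).

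Genes were filtered with filterByExpr over the 6 groups, scaled by TMM (factors 0.818 to 1.20) and tested in R (4.3.3) by the quasi-likelihood method of edgeR (4.0.16, beside limma 3.58.1), using 1 coefficient per group, all 18 libraries and Benjamini-Hochberg adjustment over 12021 genes. DESeq2 (1.42.0), other scalings and filters, a replicate block and leaving out each library were alternatives. The common biological coefficient of variation was 0.167. The test was checked on simulated counts. A floor of 3 counts covers counting error only. The genes named are the 10 members and, for each member, the genes most like it. From each list they include the called genes with the largest rise and fall in each knockout comparison, among genes of at least 5 CPM. The members and lists were chosen with earlier results of these data known. Positions are from GENCODE M39, promoters from RefSeq (GRCm38.p6), and transcript similarity from blastn (2.17.0). Figures were drawn with matplotlib (3.10.9, Python 3.11.15).

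Replicates of all groups carry the numbers 1 to 3, and the labels do not say what a number marks. Whether equal numbers pair the libraries was read from how far each library lay from its group mean. The 3 correlations between equal numbers were 0.249, 0.255 and 0.462 for *Prep*-/- against *Prep*+/- in M2, and 0.201, 0.169 and 0.259 for the LPS response of *Prep*-/- BMDMs. All exceed 0.1, so that equal numbers were taken to pair the libraries of these 2 comparisons. In the other comparisons of 2 groups, not all 3 correlations exceeded 0.1. For *Prep*-/- against *Prep*+/- in M0 they were -0.107, -0.039 and -0.315. The values printed are from the fit without the block, and the blocked value stands beside a result where it changes the call.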

Additional observations from a re-analysis of the deposited data

Results flagged for a closer look

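The knockout difference of 3 members depended on the state by an interaction test. For *Tyrobp* it was lower in M1 than in M0 (-1.10 on the log2 scale, 95% interval -1.46 to -0.74, edgeR adjusted p = 0.000333). *Tyrobp* was higher in every *Prep*-/- M0 library than in every *Prep*+/- M0 library, while the genotypes overlapped in M1.

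For *Axl* the knockout difference was lower in M2 than in M0 (-1.13, 95% interval -1.84 to -0.43, edgeR adjusted p = 0.0427), and for *Mfge8* it was higher (0.95, 95% interval 0.42 to 1.49, edgeR adjusted p = 0.0272). In M2 the genotypes did not overlap for either gene, and in M0 they overlapped for both. Over the alternatives tried, the *Axl* value ran from -1.49 to -0.79, with adjusted p from 0.00162 to 0.105, and that of *Mfge8* from 0.74 to 1.12, with adjusted p from 0.00640 to 0.0832.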

How the results depend on the processing

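Of 136 counts of called members over the alternatives, 119 stayed within 1.5 times the main count, and of 1354 values of single members 53 lost and 13 gained a call and 0 reversed a called direction. Scaling by size factors of the DESeq2 type, no filter on low counts and a mean of at least 1 CPM changed no call, and dropping the minimum fold change added 2. DESeq2 changed 1, adding *Mertk* in M2. Set against a fold change of 1.5 (glmTreat), 3 in place of 7 members were called for the knockout in M2, and 3 in place of 5 for M2 against M0 in *Prep*-/- BMDMs. With only the libraries compared in the fit, 2 were called for M2 against M0 in *Prep*-/- BMDMs and 0 in place of 2 for the difference of the knockout effect between M2 and M0. In the M2 against M0 fit of *Prep*-/- libraries alone, with and without the replicate block, *Trem1*, *Trem3* and *Treml4* were not tested, since they failed its filter on low counts, so the lower counts there include the untested *Treml4*. Leaving out 1 library gave 0 to 2 called members for that difference between M2 and M0, and 6 to 8 for the knockout in M2. The replicate block, fitted to the libraries compared, gave 3 for M2 against M0 in *Prep*-/- BMDMs, where *Gas6* was lost (-1.08, adjusted p = 0.0701), and 1 for the difference between M2 and M0, where *Axl* was lost (-1.11, adjusted p = 0.105). The block, as well as the fit with only the libraries compared, added *Mertk* in M1 and M2 against M0 in *Prep*+/- BMDMs, and in the 2 paired comparisons the block changed no call but that of *Mertk* in M2. Leaving out replicate 3 of both *Prep*-/- M0 and *Prep*-/- M2, an alternative chosen after seeing the data, was run for M2 against M0 in *Prep*-/- BMDMs and for the difference between M2 and M0, and changed no call in these 2. Counts of 0 to 12 per library limit *Trem1* and *Trem3* in *Prep*-/- M0 and M2.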
